A study of Mus musculus with 100 samples.

Results

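Whole mouse embryos at embryonic day 9.5 (E9.5) that carry KI alleles of both Mll3 and Mll4 were compared with control embryos of the same stage. The samples are the RNA tables whose titles name E9.5 embryos, 3 ending in KI and 3 ending in Ctr, which makes 6 of the 100 samples and of the 37 RNA tables of the series. Control embryos were labelled Mll3flox/KI;Mll4flox/+;Sox2-Cre and KI embryos Mll3flox/KI;Mll4flox/KI;Sox2-Cre. Both groups thus carry the floxed and the KI allele of Mll3 and the Sox2-Cre transgene, and they differ in the second Mll4 allele, which is wild type or KI. The 6 embryos at E8.5 with the same labelled genotypes (3 KI and 3 controls) were set beside them as the most similar comparison. The series asks how early development depends on the enzymatic activity of MLL3 and MLL4, and the labels do not spell out what the KI allele changes. They also do not say whether a library holds 1 embryo or a pool, nor what the leading numbers in the titles of the E9.5 samples stand for, of which replicates 1 and 2 of each group share one and replicate 3 of each group has another.

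MLL3 and MLL4, encoded by Kmt2c and Kmt2d, are related enzymes that add methyl groups to lysine 4 of histone H3, mainly at enhancers, as part of complexes with shared subunits. Sox2-Cre recombines floxed alleles in the epiblast, which gives rise to the embryo proper, and not in the trophoblast or the visceral endoderm, which form part of the placenta and the yolk sac. At the stages examined a mouse embryo forms its heart tube and circulation, closes its neural tube, makes its earliest neurons and lays down somites and limb buds, and the embryo comes to depend on blood flow for oxygen.

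RNA levels are given as CPM, read counts scaled to a common library size with TMM factors, and differences as log2 fold changes of KI over control. A gene is termed called when its edgeR quasi-likelihood p, adjusted by Benjamini-Hochberg over the 15436 genes tested, was under 0.05. The 6 E9.5 libraries held 22.3 to 26.9 M gene-level reads, so that 3 reads, the limit that a count of 0 allows, equal 0.108 to 0.132 CPM. Correlations of log2 CPM between replicates ran from 0.981 to 0.987. On the first principal component of the 12 embryo libraries (45.6% of the variance) the E8.5 embryos lay from -37.1 to -14.1, the E9.5 KI embryos from 2.53 to 15.96, and the E9.5 controls from 40.6 to 43.2. Control replicate 2 at E9.5 was male by Xist (0.288 CPM) and 4 Y-linked genes (121 CPM summed), and the other 5 embryos were female (Xist 991 to 1437 CPM). With sex as a term in the fit, chosen after seeing the data, 4255 genes were called at E9.5, of which 4058 were also called without it. P-values measure the spread between these samples, which may be technical where a pair of samples shares a source.

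At E9.5, 4560 genes were called, 29.5% of those tested. Of these, 2253 were higher in KI (14.6%) and 2307 lower (14.9%). At least 2-fold, 546 genes were called higher (3.54%) and 374 lower (2.42%). The 3 KI values lay above the 3 control values for 22.7% of the genes tested and below them for 21.4%. At E8.5, 560 genes were called higher (3.63%) and 283 lower (1.83%). The difference between the KI effects at both stages was itself called for 524 genes whose effect was higher at the later stage (3.39%) and 500 whose effect was lower there (3.24%). A total of 520 genes were called at both stages, which is 61.7% of the E8.5 calls and 11.4% of the E9.5 calls, and 494 of them had the same direction. With the title number as a replicate block, which pairs the E8.5 embryos, 1304 genes were called at E8.5 (766 higher and 538 lower) and 1547 for the stage difference (798 higher and 749 lower). The E8.5 count of 843 was 363 without the E8.5 control replicate 3, and the count of 1024 stage differences was 607 without the E9.5 KI replicate 2.

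Genes of glycolysis and low oxygen, amino acid supply and heart muscle were higher in KI at E9.5. Genes of neurons, somites, skeletal muscle and the posterior Hox groups were lower. The plot of list members shows the tissue and pathway lists with at least 5 tested members in the order of their medians. The median log2 fold change over all genes tested was 0.01, and each list median below is to be read beside it. Likewise each count of members called is to be read beside the shares of all genes tested for the same comparison. At E9.5 these were 14.6% higher and 14.9% lower, at E8.5 3.63% and 1.83%, and for the stage difference 3.39% and 3.24%.

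**Figure D1:**
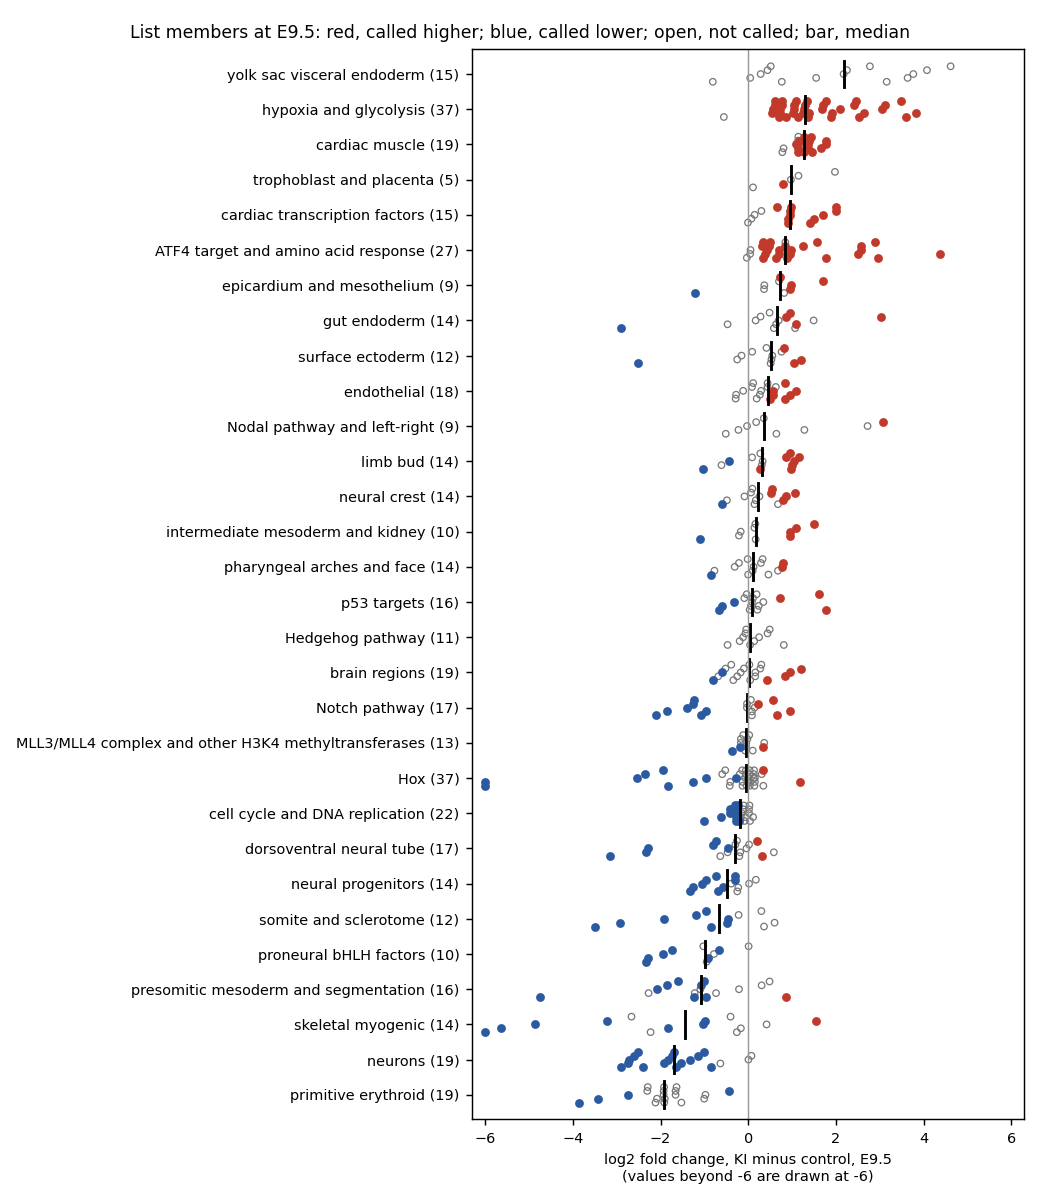
Log2 fold changes (KI over control at E9.5) of the tested members of each list, with the number tested in brackets; filled points are called, open points are not, and black bars are medians. The medians of the hypoxia (1.28) and cardiac muscle (1.27) lists lie to the right of 0, and those of the neuron (-1.68), skeletal muscle (-1.44) and erythroid (-1.92) lists to the left.

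Of 13 tested genes of the MLL3 and MLL4 complexes and of other H3K4 methyltransferases, 1 was called higher and 2 lower, with a median log2 fold change of -0.05. Of all genes tested 14.6% were called higher and 14.9% lower, so the list's count was no larger than, or near, that background. Without KI replicate 2, none was called higher and 1 lower, and without control replicate 1 there was 1 each way. Kmt2c was at 45.3, 61.6 and 54.6 CPM in KI replicates 1, 2 and 3 and at 43.6, 44.8 and 39.2 CPM in the controls (log2 fold change 0.34 with SE 0.10, edgeR adjusted p = 0.0162). The groups did not overlap, although KI replicate 1 lay close to the controls. Kmt2d averaged 169 ± 4.63 CPM (KI) against 157 ± 8.57 CPM (controls; SD, n = 3 each), a log2 fold change of 0.10 that did not pass (adjusted p = 0.266). The others that passed were Paxip1, an accessory subunit (log2 fold change -0.37 with SE 0.06, edgeR adjusted p = 0.000136), and Wdr5, a core subunit of all such complexes (log2 fold change -0.19 with SE 0.06, edgeR adjusted p = 0.0201). A single value per transcript was deposited, in which an exon deletion or a point mutation cannot be seen, so these levels do not check the genotype labels. The call of Kmt2c was lost without KI replicate 2 (log2 fold change 0.23, adjusted p = 0.132), without control replicate 3 (0.28, adjusted p = 0.0675), with replicates 1 and 2 alone at E9.5 (0.27, adjusted p = 0.124) and with a trend on transcript length removed (0.18, adjusted p = 0.0981). That of Wdr5 was lost without KI replicate 2, KI replicate 3 or control replicate 1 (adjusted p = 0.0525, 0.0737 and 0.0578) and with replicates 1 and 2 alone (adjusted p = 0.112).

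Genes of glycolysis and of the response to low oxygen were higher in KI almost throughout. Of 37 tested members, 36 were called higher and none lower, 26 of them at least 2-fold, where 14.6% of all genes tested were called higher. Their median log2 fold change was 1.28. At E8.5 the same list had 3 members called higher, none lower, and a median of 0.18, and with the block 8 higher and 1 lower. The difference between stages was called for 30 members, all with the higher effect at E9.5. The summed CPM of the list at E9.5 was 30327 to 31424 in KI and 16082 to 18906 in controls. At E8.5 it was 26029 to 29324 in KI and 22928 to 26644 in controls, so the E9.5 controls lay below both E8.5 groups. A rise or fall in the text is of KI over control at the same stage, and not a change over time. The list genes carry out steps of glucose breakdown, adapt mitochondria to scarce oxygen or signal to vessels. Many are targets of hypoxia-inducible factors, which bind DNA at a short core sequence.

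That core, ACGTG or GCGTG on either strand, was searched in the 250 bases before the gene start in RefSeq promoters (GRCm38.p6). Where a gene has several listed starts, a match before any of them was counted. It occurred in 31 of the 34 list genes with a promoter in the table (91.2%), 30 of them called, against 59.9% of the 11802 tested genes with a promoter and 41.5% of all 27025 genes. The list genes had more listed starts (1.53 a gene) than the tested genes (1.27). By window the shares were 78.8% and 54.2%, and over genes with 1 start 86.4% (19 of 22) and 56.3%. A core that reads ACGTG on both strands at once, as in CACGTG, gives overlapping matches. Windows are shown for the list genes with the largest fold changes that hold such a match, and for a glucose transporter and a glycolytic enzyme. They are printed 5′ to 3′ on the gene's strand, with the matches on either strand in capitals.
Ppp1r3c: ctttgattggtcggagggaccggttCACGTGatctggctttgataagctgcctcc
Bhlhe41: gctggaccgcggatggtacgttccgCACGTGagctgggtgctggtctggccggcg
Adm: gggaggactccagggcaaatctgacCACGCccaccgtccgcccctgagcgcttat
Slc2a1: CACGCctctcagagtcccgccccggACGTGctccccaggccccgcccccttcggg
Pgk1: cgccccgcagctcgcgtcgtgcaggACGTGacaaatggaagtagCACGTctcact
They lie at chr19:36736679-36736733 (minus strand), chr6:145865544-145865598 (minus), chr7:110627578-110627632 (plus), chr4:119108684-119108738 (plus) and chrX:106186925-106186979 (plus). Bhlhe41 and Ppp1r3c hold the palindrome CACGTG, and Adm only the GCGTG form, read on the opposite strand. These matches describe letters in the window and are not measured binding sites. The list was chosen as genes of glycolysis and low oxygen, so its share of matches describes that choice and not these embryos.

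Genes of glucose transport and breakdown were higher in KI. Slc2a1, the main embryonic glucose transporter, was at 1112, 1132 and 1006 CPM in KI embryos and at 514, 487 and 586 CPM in controls (log2 fold change 1.03 with SE 0.08, edgeR adjusted p = 3.78e-08). All KI embryos lay well above the controls. At E8.5 the mean was 1033 CPM in KI and 1099 CPM in controls, so that the E9.5 KI embryos stood near the level of both E8.5 groups and the E9.5 controls below it. Pgk1, a glycolytic enzyme that yields ATP, was at 2389.5, 2235 and 2396 CPM in KI and 1182, 1011 and 1007 CPM in controls (log2 fold change 1.13 with SE 0.08, edgeR adjusted p = 9.13e-09). The groups were again far apart. Hk2, which traps glucose in the cell, had a log2 fold change of 1.25, and Pfkp, a subunit of phosphofructokinase, 2.53. Pkm, the pyruvate kinase and the most abundant list member, rose less (6368 ± 335 against 4291 ± 562 CPM, SD, n = 3 each, log2 fold change 0.57 with SE 0.09, edgeR adjusted p = 0.000247), as did Ldha, which makes lactate (0.61). Pdk1 and Pfkfb3, regulators that restrain pyruvate oxidation and drive phosphofructokinase, had log2 fold changes of 1.40 and 1.78.

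Signals and regulators of the low-oxygen response were higher as well. Vegfa, the growth factor for blood vessels, was at 208, 234 and 226 CPM in KI and 93.3, 84.4 and 87.96 CPM in controls (log2 fold change 1.33 with SE 0.08, edgeR adjusted p = 1.56e-09). Each KI value was more than 2-fold above each control. Adm, the vasodilator peptide adrenomedullin, was at 27.8, 32.996 and 24.4 CPM in KI and 2.38, 3.31 and 1.84 CPM in controls (log2 fold change 3.49 with SE 0.39, edgeR adjusted p = 8.3e-05). Its paralog Adm2 followed (6.78, 3.76 and 5.62 against 0.860, 0.576 and 0 CPM, log2 fold change 3.45 with SE 0.56, edgeR adjusted p = 0.000256), with no read in control replicate 3. Ppp1r3c, which targets a phosphatase to glycogen, was at 25.3, 30.4 and 32.2 CPM in KI and 2.23, 1.91 and 2.02 CPM in controls (log2 fold change 3.83 with SE 0.41, edgeR adjusted p = 6.92e-05). The related transcriptional repressors Bhlhe41 and Bhlhe40 had log2 fold changes of 3.59 (SE 0.34) and 3.13 (SE 0.51). Kdm3a, a histone demethylase that uses oxygen, rose by 1.27 (SE 0.09), and Egln3, a prolyl hydroxylase that marks the hypoxia factors for breakdown, by 2.46. Bnip3, which directs mitochondria to autophagy, rose by 2.10. The member that did not pass was Pfkfb4 (6.74, 7.06 and 9.66 against 9.22, 11.1 and 14.2 CPM, log2 fold change -0.56 with SE 0.21, edgeR adjusted p = 0.0569), which was called lower in 8 of 23 alternatives. Between 35 and 37 of the 37 members were called under each alternative tried.

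Genes of amino acid supply and of the stress response that the factor ATF4 drives were also higher in KI. Of 27 tested members 23 were called higher and none lower, 9 at least 2-fold, with a median log2 fold change of 0.83. At E8.5 there were 4 higher (7 with the block) and 1 lower, with a median of 0.04, and the stage difference was called for 16 members, all higher at E9.5. Those that did not pass at E9.5 were Atf4 itself (0.05), the serine synthesis enzyme Phgdh (-0.03), the cystine transporter Slc7a11 (0.04) and Nupr1 (0.85). ATF4 is known to be controlled mainly through its translation, and protein was not measured here.

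A DNA element bound by ATF4 with C/EBP partners, TGATGNAA on either strand, was searched in the same 250 bases. It occurred in 8 of 24 list genes with a promoter in the table (33.3%), 5 of them called, against 2.39% of the tested genes and 3.91% of all. The list was chosen as targets of ATF4, so its share describes that choice and not these embryos. Of the 8, Slc7a11 and Nupr1 were not called and Fgf21 lay below the filter, whereas 23 of the 27 tested list members were called. Over genes with 1 listed start the shares were 36.8% (7 of 19) and 1.89% of the tested genes. The windows of the 5 called genes are shown, with the match in capitals. In 4 of them it lies on the opposite strand.
Chac1: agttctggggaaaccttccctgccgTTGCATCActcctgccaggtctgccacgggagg
Asns: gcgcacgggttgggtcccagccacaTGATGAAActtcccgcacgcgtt
Atf3: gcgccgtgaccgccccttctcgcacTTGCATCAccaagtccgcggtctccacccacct
Pck2: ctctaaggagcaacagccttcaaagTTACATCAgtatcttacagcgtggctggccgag
Vldlr: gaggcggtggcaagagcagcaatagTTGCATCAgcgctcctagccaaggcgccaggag
They lie at chr2:119351024-119351081 (plus strand), chr6:7693210-7693257 (minus), chr1:191183411-191183468 (minus), chr14:55540138-55540195 (plus) and chr19:27216795-27216852 (plus). The match of Asns is the nearest to its start, between bases 23 and 16 before it. Genes without a match in this window also rose, among them Trib3, Sesn2 and Stc2.

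Chac1, which degrades glutathione, had the highest log2 fold change of all genes that met the naming rule. It was at 24.01, 19.1 and 22.6 CPM in KI embryos and 1.33, 0.936 and 0.878 CPM in controls (log2 fold change 4.38 with SE 0.26, edgeR adjusted p = 1.56e-09), so that the lowest KI embryo stood more than 10-fold above the highest control. At E8.5 its log2 fold change was 1.08 (adjusted p = 0.0305). Sesn2, an inhibitor of growth signalling through mTORC1, was at 62.9, 60.7 and 73.5 CPM in KI and 19.2, 16.7 and 21.96 CPM in controls (log2 fold change 1.77 with SE 0.12, edgeR adjusted p = 3.69e-09). The KI values were all above the controls. Trib3, a pseudokinase that dampens the same stress response, was at 22.9, 17.6 and 24.4 against 4.22, 3.10 and 3.60 CPM (log2 fold change 2.57 with SE 0.37, edgeR adjusted p = 0.000197). Among enzymes, Asns, which makes asparagine, had a log2 fold change of 0.96, the mitochondrial Pck2 1.57, and Aldh1l2 of the folate cycle 2.57. Psat1 of serine synthesis rose less (280.1 ± 16.4 against 221 ± 13.999 CPM, SD, n = 3 each, log2 fold change 0.34 with SE 0.06, edgeR adjusted p = 0.000497). Amino acid transporters were represented by Slc7a3 (16.1, 17.3 and 15.7 against 2.11, 2.56 and 1.58 CPM, log2 fold change 2.97 with SE 0.20, edgeR adjusted p = 5.31e-09), Slc7a5 (0.83) and Slc7a1 (0.69). Stc2, a secreted glycoprotein induced by stress, had a log2 fold change of 2.89, and the receptor Vldlr 2.51. From 20 to 23 members were called under each alternative.

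**Figure D2:**
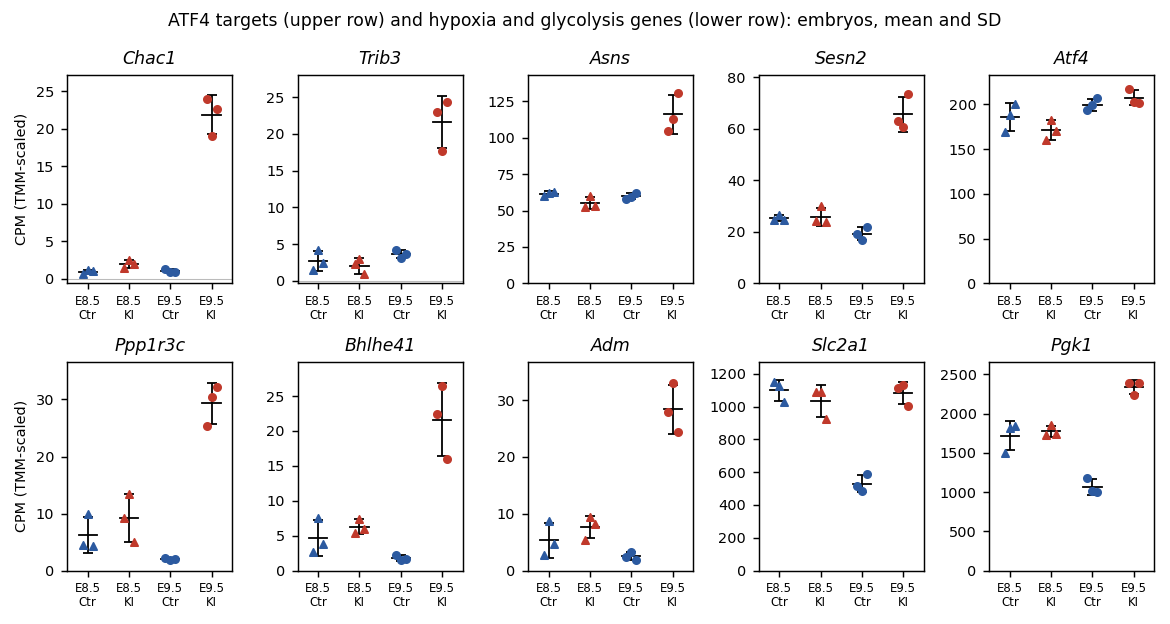
CPM of 5 genes of the ATF4 list (upper row) and 5 of the hypoxia list (lower row) in each embryo, by stage and genotype, with the mean and SD of 3 embryos. Chac1, Trib3, Asns and Sesn2 stand apart in the E9.5 KI embryos, Atf4 does not, and Slc2a1 and Pgk1 are lowest in the E9.5 controls.

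Markers of primitive red blood cells were lower in KI, with a spread that followed the leading numbers of the titles. In bulk embryos, fewer cells of a type and less RNA per cell cannot be told apart, here and in all tissues below. All 19 tested members had negative log2 fold changes, with a median of -1.92, but 4 were called (none higher). The median was -3.08 without KI replicate 3 and -1.29 without control replicate 3. At E8.5 the median was -2.53 and 2 were called lower, or 18 with the title number as a block. The summed CPM of the list was 1601, 1326 and 6191 in KI replicates 1, 2 and 3 and 6951, 6412 and 16919 in the controls. Replicate 3, which has another title number than replicates 1 and 2, held the most in each group, and KI replicate 3 came close to the lower controls. Within replicates 1 and 2, log2 ratios of KI over control were -2.41 for Hba-x, -2.47 for Hbb-y and -3.59 for Klf1, and within replicate 3 of both groups they were -1.63, -1.62 and -2.32. The direction was the same within each title number for these genes. At E9.5, 19 members were called without KI replicate 3 and 19 with the title number as a block, with replicates 1 and 2 alone at E9.5, 16, with DESeq2, 13, and with the 6 E9.5 libraries alone, 1.

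Klf1, the factor that drives erythroid genes, was at 1.02, 0.919 and 6.31 CPM in KI and 12.3, 11.3 and 31.6 CPM in controls (log2 fold change -2.74 with SE 0.74, edgeR adjusted p = 0.0244). Hemgn, a nuclear protein of red cell precursors, was at 0.327, 0.334 and 2.83 CPM in KI and 8.79, 8.86 and 32.7 CPM in controls (log2 fold change -3.85 with SE 0.90, edgeR adjusted p = 0.0131). The groups of both genes did not overlap. Epb42, a membrane protein, was called as well (log2 fold change -3.43 with SE 0.88, edgeR adjusted p = 0.0181), and so was the transferrin receptor Tfrc, which is not restricted to red cells (log2 fold change -0.44 with SE 0.09, edgeR adjusted p = 0.00103). The most abundant members, the globins, did not pass: Hba-x was at 269.9, 229 and 1135 against 1364, 1282 and 3514 CPM (log2 fold change -1.92 with SE 0.71, edgeR adjusted p = 0.0772). Hba-a1 and Hba-a2 are near-identical copies with nearly the same reads here, so their values are uncertain. Trim10, which acts in red cell maturation, and the potassium channel gene Kcnn4 had log2 fold changes of -3.54 and -3.67. Like the list, their highest KI value was in replicate 3. With the 6 E9.5 libraries alone, the adjusted p was 0.114 for Klf1, 0.0751 for Hemgn, 0.0886 for Epb42 and 0.0965 for Trim10. The call of Klf1 was also lost without KI replicate 1, KI replicate 2 or control replicate 3 (adjusted p = 0.0634, 0.0705 and 0.0636), and that of Trim10 without KI replicate 1 or 2 (adjusted p = 0.0519 and 0.0777).

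**Figure D3:**
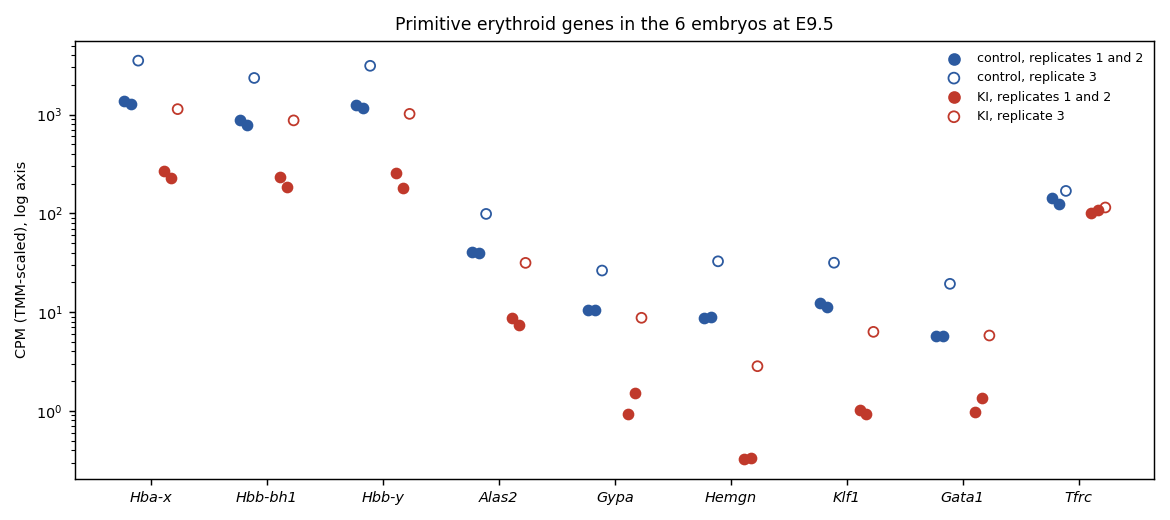
CPM on a log axis of 9 red blood cell genes in the 6 embryos at E9.5; red stands for KI and blue for control, filled points for replicates 1 and 2, which share a title number, and open points for replicate 3. KI points lie below the control points of the same title number for each gene.

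Genes of heart development were higher in KI. Among cardiac transcription factors 11 of 15 were called higher and none lower, with a median of 0.95, beside 9 higher and a median of 0.62 at E8.5. Gata6 was at 83.2, 90.6 and 95.4 CPM in KI and 29.98, 23.9 and 29.2 CPM in controls (log2 fold change 1.70 with SE 0.10, edgeR adjusted p = 1.22e-09). Its KI effect exceeded that at E8.5 (0.60) by 1.10 on the log2 scale (adjusted p = 8.84e-05). Across the list, the stage difference was called for 4 members with the higher effect at E9.5 and 2 with the lower, or 4 and 3 with the block. Nkx2-5, an early regulator of heart muscle fate, was at 31.2, 21.3 and 20.7 CPM in KI and 5.47, 7.56 and 5.23 CPM in controls (log2 fold change 1.997 with SE 0.20, edgeR adjusted p = 3.54e-06). The lowest KI embryo lay above the highest control by more than 2-fold. Hand1 was at 139, 149 and 149 against 22.6, 28.3 and 58.4 CPM (log2 fold change 2.01 with SE 0.31, edgeR adjusted p = 0.00189), with control replicate 3 nearest to KI. Tbx5 (0.98), Hand2 (0.96) and Gata5 (0.90) rose by similar log2 fold changes. Isl1, Tbx2, Tbx3 and Hey1 did not pass (log2 fold changes 0.07, -0.01, 0.30 and 0.15), although Tbx3 was called higher in 6 of 23 alternatives.

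Contractile genes of heart muscle followed, with a larger spread among KI embryos. Of 19 tested, 15 were called higher and none lower, with a median of 1.27. At E8.5 none was called, with a median of 0.52, and the stage difference was called for Ryr2 (log2 difference 1.35, adjusted p = 0.00899) and, with the block, also for Ttn. The summed CPM of the list was 2401, 1442 and 1274 in KI and 714, 667 and 548 in controls, so the groups did not overlap and KI replicate 1 was highest. Myh7, a cardiac myosin heavy chain, was at 564, 312 and 310.0 CPM in KI and 127, 121 and 101 CPM in controls (log2 fold change 1.77 with SE 0.37, edgeR adjusted p = 0.00817). Myh6, its atrial counterpart, was at 431, 309 and 202 against 131, 129 and 101 CPM (log2 fold change 1.39 with SE 0.28, edgeR adjusted p = 0.00675). KI replicate 1 was highest for both. Ryr2, the calcium release channel, was at 22.3, 18.002 and 18.1 against 6.84, 7.34 and 7.11 CPM (log2 fold change 1.45 with SE 0.21, edgeR adjusted p = 7.14e-05), and Smyd1, a methyltransferase of muscle, at 22.6, 13.8 and 18.6 against 9.46, 8.96 and 7.47 CPM (log2 fold change 1.08 with SE 0.24, edgeR adjusted p = 0.00374). Those that did not pass were Myl2, Tnnc1, Nppa and Nppb, of which Tnnc1 was called higher in 9 of 23 alternatives. With replicates 1 and 2 alone at E9.5, 5 members were called, without control replicate 2 or control replicate 3, 8, and without control replicate 1 or KI replicate 1, 10. Smyd1 missed the threshold with replicates 1 and 2 alone (adjusted p = 0.0612).

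Mesothelial and vessel genes were partly higher. In the epicardium and mesothelium list 4 of 9 were called higher and 1 lower. Tcf21 was at 21.8, 14.5 and 20.98 CPM in KI and 7.07, 6.55 and 3.996 CPM in controls (log2 fold change 1.69 with SE 0.20, edgeR adjusted p = 4.03e-06). Wt1 (0.97), Bnc1 (0.96) and Krt19 (0.72) were also called. Aldh1a2, the main enzyme of retinoic acid synthesis and also a somite gene, went the other way, at 20.6, 21.8 and 27.2 CPM in KI and 51.9, 53.3 and 55.8 CPM in controls (log2 fold change -1.21 with SE 0.12, edgeR adjusted p = 1.79e-06). It was similarly lower at E8.5 (log2 fold change -1.24). Of 18 endothelial genes 7 were called higher and none lower, with a median of 0.44, and 10 were higher at E8.5. Sox17 (1.09), the Notch ligand Dll4 (0.95), and the VEGF receptors Flt1 (0.83) and Kdr (110.5, 132 and 119 against 84.4, 89.9 and 80.7 CPM, log2 fold change 0.50 with SE 0.09, edgeR adjusted p = 0.000411) were among them. Cdh5, which marks all endothelium, did not pass (0.11). No stage difference was called for this list, although 4 members had a lower effect at E9.5 at an unadjusted edgeR p under 0.05.

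Neurons and their precursors were lower in KI. Of 19 neuronal genes, 16 were called lower and none higher, where 14.9% of all genes were called lower, with a median of -1.68. Tubb3, a tubulin of young neurons, was at 24.5, 25.8 and 23.1 CPM in KI and 129, 155 and 102 CPM in controls (log2 fold change -2.40 with SE 0.14, edgeR adjusted p = 2.33e-08). Elavl3, an RNA-binding protein of neurons, was at 5.63, 6.01 and 4.29 against 35.3, 40.1 and 31.3 CPM (log2 fold change -2.74 with SE 0.20, edgeR adjusted p = 1.17e-08), and the neurofilament gene Nefm at 22.9, 22.8 and 21.7 against 82.9, 106 and 65.6 CPM (log2 fold change -1.92 with SE 0.14, edgeR adjusted p = 9.6e-08). The KI embryos were tightly grouped and far below all controls for these genes. At E8.5, when mean Tubb3 levels were 25.3 CPM (KI) and 22.1 CPM (controls), 3 members were called lower and 1 higher, or 5 and 2 with the block, where 1.83% and 3.63% of all genes were. The stage difference was called for 10 members, all lower at E9.5 (Tubb3 -2.59, Elavl3 -2.59). Gap43, Onecut1 and Isl1 did not pass at E9.5. Outside the list, the axonal adhesion gene Cntn2 (1.92, 2.005 and 1.76 against 20.4, 31.1 and 14.4 CPM, log2 fold change -3.53 with SE 0.33, edgeR adjusted p = 8.45e-07) and the neuronal factor gene Myt1 (-3.49) were among the genes with the lowest log2 fold changes. From 15 to 16 list members were called under each alternative.

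Proneural factors, which commit progenitors to neuronal fate, were lower for 6 of 10 tested and higher for none (median -0.99). Neurog2, the most abundant, was at 17.5, 19.8 and 10.7 CPM in KI and 32.5, 31.9 and 25.95 CPM in controls (log2 fold change -0.91 with SE 0.22, edgeR adjusted p = 0.00675). Every KI value lay below every control. Olig2, which marks motor neuron progenitors, was at 5.68, 5.43 and 3.99 against 28.3, 26.1 and 22.2 CPM (log2 fold change -2.34 with SE 0.19, edgeR adjusted p = 6.83e-08). Neurog1 (-1.73), Neurod1 (-1.94), Neurod4 (-2.28) and Olig3 (-0.68) made up the 6. Scrt2, a repressor in new neurons, had one of the lowest stage differences (-3.52), and its E9.5 levels were 1.56 ± 0.837 CPM (KI) against 9.66 ± 2.18 CPM (controls; SD, n = 3 each).

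Progenitor genes of the neural tube moved less. Of 14 genes 9 were called lower and none higher (median -0.48). Nes, an intermediate filament of progenitors, was at 143, 128 and 123 CPM in KI and 356, 357 and 270.1 CPM in controls (log2 fold change -1.32 with SE 0.12, edgeR adjusted p = 4.35e-06). Pax6 fell from 52.9 ± 4.02 CPM in controls to 31.7 ± 3.14 CPM in KI (SD, n = 3 each, log2 fold change -0.74 with SE 0.11, edgeR adjusted p = 4.88e-05). Sox2 was at 188, 211 and 160.5 against 248, 239.9 and 202 CPM (log2 fold change -0.30 with SE 0.09, edgeR adjusted p = 0.0198), with KI replicate 2 above control replicate 3, and Sox3 had a log2 fold change of -1.06. Zic2, Nkx6-1, Sox21, Hes3 and Fabp7 did not pass. Along the dorsoventral axis 6 of 17 were called lower (4 without KI replicate 2) and 2 higher. Dbx1, of interneuron progenitors at the middle of the tube, was at 4.16, 4.47 and 1.63 against 34.1, 33.3 and 23.4 CPM (log2 fold change -3.14 with SE 0.40, edgeR adjusted p = 0.000225), while Shh, the ventral signal, did not pass (log2 fold change -0.47 with SE 0.29, edgeR adjusted p = 0.267). Msx1, a dorsal gene, was higher (log2 fold change 0.32 with SE 0.07, edgeR adjusted p = 0.00352), and so was Irx3, whose log2 fold change of 0.20 missed the threshold in 15 of 23 alternatives.

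Of 19 genes that mark brain regions 4 were called higher and 2 lower (median 0.03), shares near those over all genes tested (14.6% and 14.9%). The number higher was 2 without KI replicate 3, and the number lower was 4 without control replicate 2 or with DESeq2. Lhx2 and Otx1, of the forebrain and midbrain, were lower (log2 fold changes -0.80 and -0.61). Pax8 (0.94), Egr2 (1.20), Pax5 (0.84) and En1 (0.43), mostly of the midbrain-hindbrain boundary and the hindbrain, were higher. En2, of the same boundary, was at 42.8, 48.8 and 42.8 CPM in KI and 37.6, 36.5 and 35.1 CPM in controls, which did not pass (adjusted p = 0.291) except with the 6 E9.5 libraries alone (0.0218) or without the E8.5 KI replicate 3 (0.0296). At E8.5, 5 of the 19 were called lower and none higher, where 1.83% of all genes were called lower, and the stage difference was called for 5 with the higher effect at E9.5 (3.39% of all genes) and 1 with the lower. En2 was lower in KI at E8.5 (log2 fold change -2.03, adjusted p = 0.000322), and its difference between stages was 2.33 (adjusted p = 0.000892). En1 showed the same order, -1.32 at E8.5 and 0.43 at E9.5. Of 14 neural crest genes 5 were higher and 1 lower. Tfap2a, needed for early crest, was at 47.2, 43.9 and 41.1 against 24.8, 22.5 and 25.4 CPM (log2 fold change 0.86 with SE 0.11, edgeR adjusted p = 9.24e-06), Snai2 had a log2 fold change of 1.06, and Sox10 did not pass (0.09). Ngfr, a neurotrophin receptor that also marks neurons, was lower (log2 fold change -0.59 with SE 0.09, edgeR adjusted p = 0.000102). Of 14 genes of the pharyngeal arches and face, Tbx1 (0.80) and Alx1 (0.77) were called higher, and Pax9 (-0.84) lower, again no more than the shares over all genes tested. With the title number as a block 5 were called higher, and without control replicate 3 there were 3. Of these, Tbx1 lost its call without control replicate 1 or KI replicate 2 (adjusted p = 0.0672 and 0.0802) and with no filter on low counts (0.0501), and Alx1 with replicates 1 and 2 alone (0.0722). Pax9 lost it in that fit (0.104) and without any 1 of 5 E9.5 embryos (0.0546 to 0.107), KI replicate 2 being the exception.

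The tissue that forms somites, and the somites themselves, had lower levels in KI. Of 16 genes of presomitic mesoderm and segmentation 8 were called lower and 1 higher (median -1.08). Dll3, a Notch pathway gene of the segmentation clock, was at 14.3, 9.61 and 9.70 CPM in KI and 37.1, 40.1 and 45.4 CPM in controls (log2 fold change -1.86 with SE 0.17, edgeR adjusted p = 1.53e-06). Lfng, an enzyme that modifies Notch, was at 25.7, 24.5 and 25.2 against 55.03, 66.7 and 54.9 CPM (log2 fold change -1.23 with SE 0.11, edgeR adjusted p = 1.31e-07), and Dll1 at 43.3, 39.5 and 36.2 against 74.5, 85.8 and 90.9 CPM (log2 fold change -1.08 with SE 0.09, edgeR adjusted p = 1.14e-07). Dll1, Dll3 and Lfng are also expressed in the neural tube, and the neuronal and progenitor lists were lower in the same embryos. Tbx6, more restricted to presomitic mesoderm, was at 5.19, 2.80 and 3.05 against 5.28, 5.33 and 11.6 CPM (log2 fold change -1.002 with SE 0.30, edgeR adjusted p = 0.0205), with KI replicate 1 close to controls 1 and 2. Msgn1 (-2.08) and Wnt3a (-0.96) were called lower, T was not (log2 fold change -0.73 with SE 0.34, edgeR adjusted p = 0.141). Cdx4, a posterior factor, was higher (17.6, 11.7 and 12.3 against 7.62, 5.69 and 9.75 CPM, log2 fold change 0.86 with SE 0.24, edgeR adjusted p = 0.0222), and not without control replicate 1, control replicate 2 or KI replicate 1 (adjusted p = 0.0762, 0.0702 and 0.0701).

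Of 12 somite and sclerotome genes 8 were called lower and none higher (median -0.66). Pax1, which marks the sclerotome that forms the vertebrae, was at 2.001, 2.21 and 1.20 CPM in KI and 21.9, 21.6 and 17.3 CPM in controls (log2 fold change -3.48 with SE 0.22, edgeR adjusted p = 2.81e-09). Uncx, of the posterior part of each somite, was at 2.08, 4.13 and 3.73 against 26.8, 24.3 and 23.8 CPM (log2 fold change -2.91 with SE 0.22, edgeR adjusted p = 1.91e-08). KI values were a small part of control values in every embryo. Tcf15 followed (log2 fold change -1.91 with SE 0.17, edgeR adjusted p = 3.08e-07), and Foxc1, the most abundant with Meox1, was lower by a margin that depends on the fit (log2 fold change -0.48 with SE 0.16, edgeR adjusted p = 0.0415). It missed the threshold in 11 of 23 alternatives, among them those without control replicates 1 or 2 and without KI replicates 1 or 3 (adjusted p = 0.12, 0.132, 0.109 and 0.142). At E8.5, 5 members were called lower, among them Pax1 (log2 fold change -2.74) and Uncx (-2.32). No stage difference was called in this list.

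Skeletal muscle genes, at low levels at this stage, were lower for 7 of 14 and higher for 1. Myh3, the embryonic myosin heavy chain, was at 0.163, 0.334 and 0.257 CPM in KI and 8.09, 9.94 and 4.22 CPM in controls (log2 fold change -4.86 with SE 0.44, edgeR adjusted p = 2.24e-07). Myog had no read in KI replicates 1 and 2, 0.0572 ± 0.0991 CPM in KI and 3.04 ± 0.578 CPM in controls (SD, n = 3 each, edgeR adjusted p = 6.92e-05). Myf6 had no read in KI and 0.705 ± 0.218 CPM in controls, at least 5.62-fold lower when the floor of 3 reads in each KI library is used. Myf5 was at 0.0817, 0.418 and 0.343 against 3.28, 1.80 and 2.90 CPM (log2 fold change -3.22 with SE 0.58, edgeR adjusted p = 0.000353). No KI embryo reached a control for these 4 muscle genes. At E8.5 none of the list was called, and the stage difference was called for Myf5 (-3.27), Myh3 (-4.24) and Cdh15 (-2.37). Acta1 went the other way (55.1, 30.03 and 23.002 against 13.4, 14.2 and 9.40 CPM, log2 fold change 1.55 with SE 0.49, edgeR adjusted p = 0.0455), with KI replicate 1 highest as for Myh6 and Myh7 of the heart, where it is also expressed. Acta1 missed the threshold in 10 of 23 alternatives, among them those without any 1 of control replicates 1, 2 and 3 and KI replicates 1 and 2 (adjusted p from 0.0771 to 0.134). Wfdc1, which belongs to no list, was at 0.408, 0.543 and 0.515 against 5.43, 5.51 and 5.80 CPM (log2 fold change -3.50 with SE 0.47, edgeR adjusted p = 1.87e-05).

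**Figure D4:**
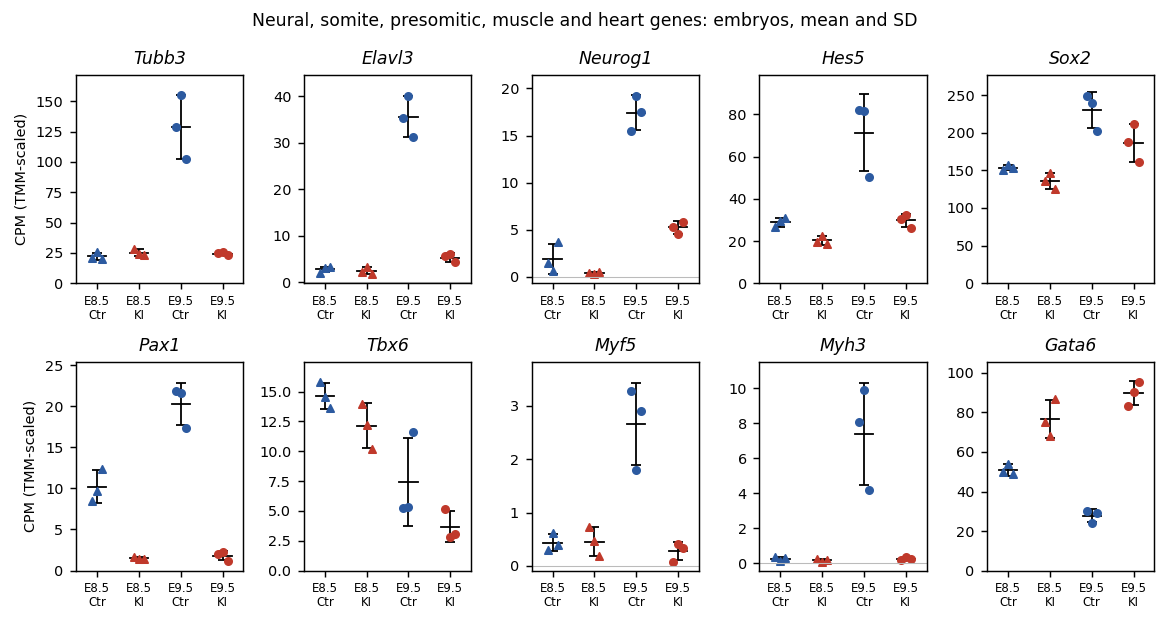
CPM of 5 neural genes (upper row) and of Pax1, Tbx6, Myf5, Myh3 and Gata6 (lower row) in each embryo, by stage and genotype, with the mean and SD of 3 embryos. Tubb3 and Myh3 are high in the E9.5 controls and near the E8.5 levels in the E9.5 KI embryos, whereas Gata6 is lowest in the E9.5 controls.

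Limb bud genes were more often called higher than lower. Of 14 limb genes 7 were called higher and 2 lower (median 0.32). Msx2 was at 69.7, 66.5 and 63.3 CPM in KI and 31.1, 32.01 and 34.1 CPM in controls (log2 fold change 1.04 with SE 0.08, edgeR adjusted p = 5.88e-08), Fgf10, the ligand that starts limb outgrowth, had a log2 fold change of 0.86, and Grem1 1.16. Prrx1 (-0.44) and Lmx1b (-1.04) were lower. Tbx5 and Hand2, in this list too, are shared with the heart. In intermediate mesoderm 4 of 10 were higher, Osr1 (31.4, 28.4 and 28.5 against 6.96, 8.89 and 15.4 CPM, log2 fold change 1.51 with SE 0.21, edgeR adjusted p = 0.000166), Gata3 (1.08), Ret (0.96) and Pax8, and Sim1 was lower (-1.11), though not with replicates 1 and 2 alone (adjusted p = 0.0596).

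Hox genes, which give cells their position along the body axis in the order of their paralog groups, split by group. Of 37 tested, 2 were called higher and 9 lower. In groups 1 to 4, Hoxd1 (27.03, 21.6 and 20.4 against 10.1, 9.61 and 10.5 CPM, log2 fold change 1.19 with SE 0.12, edgeR adjusted p = 8.34e-07) and Hoxb2 (0.34) were higher, and Hoxd4 lower (-0.28), of 11 tested. In groups 5 to 9 none of 15 was called, with a median of -0.01, and Hoxb9, the most abundant Hox gene, was at 102 ± 4.19 against 111 ± 19.2 CPM (SD, n = 3 each). Hoxb7 lay at the threshold (log2 fold change -0.41, edgeR adjusted p = 0.0501) and was called lower in 10 of 23 alternatives. Hoxc8 (0.34) was called higher in 3 of 23. In groups 10 to 13, 8 of 11 were called lower and none higher, with a median of -1.82. With replicates 1 and 2 alone 4 were called lower, without KI replicate 3 there were 6, and without KI replicate 2 or control replicate 3 there were 7. Hoxd13 was at 2.82, 1.46 and 1.76 CPM in KI and 10.5, 12.6 and 11.9 CPM in controls (log2 fold change -2.53 with SE 0.28, edgeR adjusted p = 2.24e-06), and Hoxd11 at 6.53, 2.46 and 3.22 against 15.8, 22.6 and 24.4 CPM (log2 fold change -2.36 with SE 0.33, edgeR adjusted p = 8.51e-05). No KI value reached a control. Hoxd12 had no read in any KI embryo, and was at 3.91, 5.87 and 5.53 CPM in controls (adjusted p = 9.09e-07), at least 40.7-fold lower by the same floor. Hoxc12 had none either, and was at 1.72, 2.45 and 2.02 CPM in controls, at least 16.4-fold lower. Hoxd10, Hoxa11, Hoxc11 and Hoxc13 completed the 8.

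At E8.5 the same posterior groups had the opposite order. Of the 11 genes 5 were called higher in KI and none lower (Hoxa10, Hoxa11, Hoxc11, Hoxd11 and Hoxa13), with a median of 1.66, and Hoxd10 was called as well with the block. Hoxa11 was at 17.6, 12.5 and 15.6 CPM in the E8.5 KI embryos and 1.85, 7.16 and 4.06 CPM in the E8.5 controls, and at 7.80, 6.56 and 5.96 against 13.3, 14.6 and 20.7 CPM at E9.5. KI levels were thus the higher ones at E8.5 and the lower ones at E9.5. The stage difference was called for 10 of the 11, all but Hoxc10, with -4.04 for Hoxd11 (adjusted p = 0.000299) and -3.29 for Hoxd13 (adjusted p = 5.7e-05). Counting by strand is not given in the sources used here, so reads of antisense transcripts in the Hox clusters cannot be told apart from those of the genes.

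**Figure D5:**
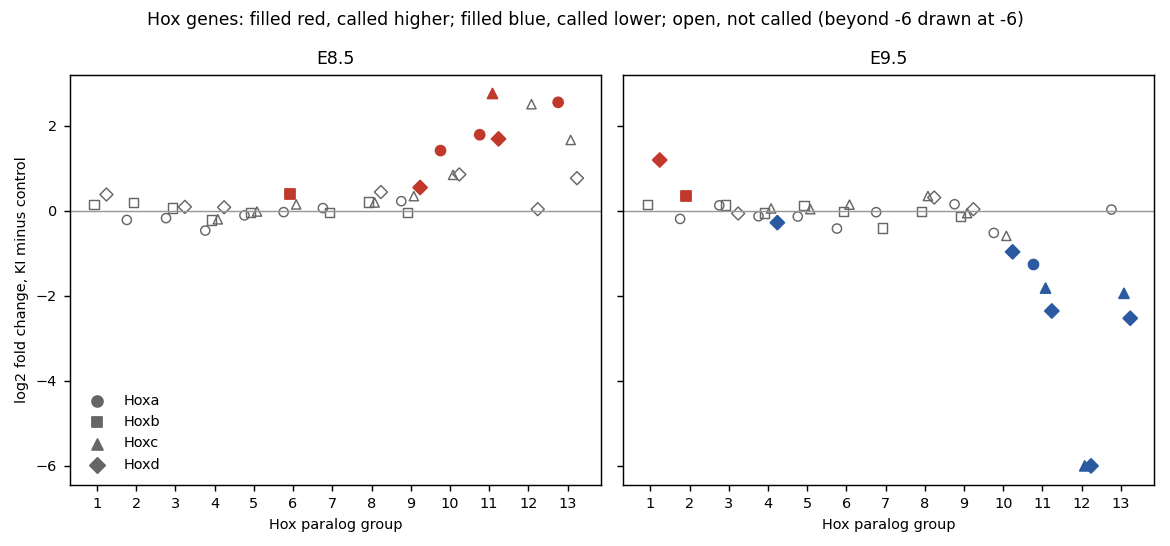
Log2 fold changes of KI over control for the tested Hox genes by paralog group, at E8.5 (left) and E9.5 (right); marker shape gives the cluster, and filled markers are called. Groups 10 to 13 lie above 0 at E8.5 and, except Hoxa13, below 0 at E9.5, where Hoxc12 and Hoxd12, without KI reads, are drawn at -6.

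Gut endoderm genes were called higher for 4 of 14 and lower for 1 (median 0.67), where 14.6% of all genes tested were called higher and 14.9% lower. The number higher was 7 with the 6 E9.5 libraries alone and without the E8.5 control replicate 1 or KI replicate 2, and 8 with the title number as a block. Epcam, a surface protein of epithelia, was at 60.3, 63.4 and 64.5 CPM in KI and 30.3, 32.2 and 41.9 CPM in controls (log2 fold change 0.85 with SE 0.12, edgeR adjusted p = 7.02e-05), and Hhex had a log2 fold change of 0.95. Sox17, counted here as well, also marks endothelium. Nkx2-1, of the thyroid and lung primordia and of the ventral forebrain, was at 1.43, 1.67 and 1.16 against 11.2, 10.9 and 9.75 CPM (log2 fold change -2.90 with SE 0.32, edgeR adjusted p = 2.46e-06). The groups were far apart in every embryo. It was lower at E8.5 too (log2 fold change -1.76). In surface ectoderm 3 of 12 were called higher, beside the same background, Krt18 (1.20), Krt8 (1.04) and Dlx3 (0.82), and Krt5 was lower (0.817, 1.002 and 0.515 against 4.26, 4.57 and 4.52 CPM, log2 fold change -2.51 with SE 0.39, edgeR adjusted p = 9.87e-05). Krt8 and Krt18 are expressed in many simple epithelia, and control replicate 3 was nearest to KI for both (71.95, 95.9 and 170.3 CPM of Krt8 in the controls, 233, 234 and 228 in KI). Krt8 lost its call without control replicate 2 or any 1 KI embryo (adjusted p from 0.0536 to 0.0815) and with the 6 E9.5 libraries alone (0.108). The number of ectoderm genes called higher was 2 without control replicate 2 or any 1 KI embryo. It was 6 with the 6 E9.5 libraries alone, with DESeq2 and without control replicate 3 or the E8.5 KI replicate 2, and 7 with the block and without the E8.5 control replicate 2.

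Extraembryonic and immune markers, which a dissected embryo may carry, were measured beside these. The 15 tested genes of yolk sac visceral endoderm had a median of 2.18, and none was called by edgeR in the fit of 12 libraries, where 6 had an unadjusted p under 0.05. Without KI replicate 1 the median was 1.44. Whether they were called depended on the fit. With the 6 E9.5 libraries alone 9 were called higher, with the title number as a block 8, with DESeq2 7, without the E8.5 KI replicate 2 4, and without the E8.5 KI replicate 1, control replicate 1 or control replicate 2 there were 2. With the block, 6 also had a called stage difference, all with the higher effect at E9.5. Their summed CPM was 434, 290 and 219 in KI and 129, 146 and 151 in controls. The groups did not overlap, and the order within KI was that of the contractile list. Apob was at 43.98, 21.3 and 6.44 CPM in KI and 1.17, 1.01 and 0.703 CPM in controls (adjusted p = 0.096), and Afp at 83.01, 51.2 and 26.3 against 13.6, 21.9 and 19.3 CPM (adjusted p = 0.284). Of 12 trophoblast genes 5 were tested. Among these Tfap2c was called higher (0.80), a gene that ectoderm and crest also express, and up to 4 were called in other fits (4 with the 6 E9.5 libraries alone). The untested ones lay below the filter, at no more than 0.790 CPM in any library, and Tpbpa and Psg21 had no read. The part of such tissue in the epithelial and endodermal results was not tested. Of 11 macrophage genes 3 were tested, and Mrc1 was higher (2.25, 2.21 and 2.32 against 0.547, 0.288 and 0.615 CPM, log2 fold change 2.23 with SE 0.40, edgeR adjusted p = 0.000334), while Csf1r did not pass (0.38). The remaining tested member, Fcer1g, did not pass either, and its KI values all lay below its control values (log2 fold change -1.09). Among members below the filter, Tyrobp and C1qb had the same order at 0.360 CPM or less, and none had the opposite order.

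Notch pathway genes went in both directions. Of 17, 7 were called lower and 4 higher (median -0.03). Nrarp, a feedback target of Notch, was at 37.6, 33.96 and 35.96 CPM in KI and 86.9, 103 and 93.97 CPM in controls (log2 fold change -1.40 with SE 0.09, edgeR adjusted p = 2.7e-09). The receptor Notch1 was at 71.2, 85.96 and 73.8 against 149, 176 and 128 CPM (log2 fold change -0.97 with SE 0.10, edgeR adjusted p = 2.33e-06), and its neural target Hes5 at 30.5, 32.4 and 26.3 against 82.2, 81.4 and 50.5 CPM (log2 fold change -1.26 with SE 0.15, edgeR adjusted p = 3.33e-05). All KI values lay below all controls for these. Dll1, Dll3 and Lfng, given above, and Heyl (-2.10) were lower too. Hes1, Hey2, Dll4 and Notch3 were higher (log2 fold changes 0.55, 0.66, 0.95 and 0.23), of which Notch3 missed the threshold in 18 of 23 alternatives. At E8.5 the effect on Nrarp was -0.03, and the difference between stages was called for 7 members, all lower at E9.5.

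In the Hedgehog pathway none of 11 tested genes was called by edgeR in the fit of 12 libraries without a block (median 0.04), with 2 higher and 1 lower at an unadjusted p under 0.05. Gli3 was called lower in 5 of 23 alternatives. These were DESeq2, no filter on low counts, replicates 1 and 2 alone at E9.5, a length trend removed, and the fit without control replicate 3. Without KI replicate 3, Gli1 and Hhip were called higher, and with the title number as a block those and Ptch1. Hhip was called higher in 4 of 23 alternatives. In the fit without a block Gli1 and Ptch1, targets that report the pathway's activity, did not pass, with log2 fold changes of 0.25 (adjusted p = 0.118) and 0.44 (adjusted p = 0.203). The stage difference of Ptch1 was 0.42 (adjusted p = 0.535), and it was called with the block (adjusted p = 0.0157). Among 9 Nodal and left-right genes 1 was called higher and none lower, the Nodal co-receptor gene Tdgf1, at a mean of 0.486 ± 0.359 against 0.0553 ± 0.0482 CPM (SD, n = 3 each, log2 fold change 3.08 with SE 0.80, edgeR adjusted p = 0.00658), a call lost without KI replicate 2 (adjusted p = 0.0569). The number of these genes called ran from 0 with the 6 E9.5 libraries alone to 4 without control replicate 3. Of 16 p53 targets 3 were called higher and 3 lower, shares near those over all genes tested, and 5 were higher without control replicate 3. Cdkn1a and Mdm2, its best known targets, did not pass (0.03 and 0.06), Eda2r was at 3.55, 6.27 and 11.1 against 2.42, 1.66 and 2.72 CPM (log2 fold change 1.62 with SE 0.36, edgeR adjusted p = 0.00234), Bbc3 (0.71) and Fas (1.77) were higher, and Aen (-0.59), Btg2 (-0.66) and Gtse1 (-0.33) lower. Bbc3 lost its call without KI replicate 3 (adjusted p = 0.0553) and with replicates 1 and 2 alone (0.0802).

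Among genes of DNA replication and the cell cycle, those that passed were lower. Of 22, 11 were called lower and none higher, with a median of -0.19. Ccne1, the cyclin that starts replication, was at 64.4, 55.2 and 43.6 CPM in KI and 110.3, 108 and 108 CPM in controls (log2 fold change -0.997 with SE 0.10, edgeR adjusted p = 1.4e-06). Rrm2, which supplies nucleotides, was at 264, 242 and 217 against 385, 372 and 359 CPM (log2 fold change -0.62 with SE 0.07, edgeR adjusted p = 3.05e-06), and Pcna fell by a smaller margin (log2 fold change -0.41 with SE 0.06, edgeR adjusted p = 6.35e-05). KI and control values of these did not overlap. Mki67, an abundant marker of cycling cells, was at 556, 586 and 619 against 669, 716 and 719.7 CPM (log2 fold change -0.26 with SE 0.07, edgeR adjusted p = 0.00664). Top2a, Cdk1, Ccnb1 and Ccnb2 did not pass. At E8.5 the log2 fold changes of Ccne1 and Rrm2 were -0.05 and -0.17. The linker histone genes H1f3 (12.7, 11.99 and 8.41 against 0.625, 1.94 and 0.439 CPM, log2 fold change 3.43 with SE 0.42, edgeR adjusted p = 3.33e-05) and H1f5 (3.43) were among the genes with the highest log2 fold changes. They belong to a family of similar copies whose usual transcripts lack a poly(A) tail, so their levels in poly(A)-selected libraries are uncertain.

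Among genes called for the stage difference and with a mean of at least 5 CPM in 1 of the 4 groups, the largest differences of the KI effect were Ppp1r3c (3.30), Chac1 (3.30), Bhlhe41 (3.18) and Ndufa4l2 (3.12) with the higher effect at E9.5. Ndufa4l2, a mitochondrial protein that is known to respond to low oxygen, was at 2.26, 3.30 and 3.52 CPM in KI and 4.01, 6.43 and 5.43 CPM in controls at E8.5, and at 5.47, 7.81 and 10.1 against 1.13, 1.55 and 2.02 CPM at E9.5. The KI embryos were thus above the controls at E9.5 (adjusted p = 1.13e-05), and at E8.5 the difference did not pass (log2 fold change -0.81, adjusted p = 0.105), although with the block it was called lower (adjusted p = 0.0363). With the lower effect at E9.5 and by the same limit they were Hoxd12, whose KI embryos had no read at E9.5, Myh3 (-4.24), Hoxd11 (-4.04) and Scrt2 (-3.52). Genes below that limit had values beyond these in both directions, among the Hox genes Hoxc12, also without a KI read at E9.5, Hoxc11 (-4.58) and Hoxc13 (-3.61). The fitted values of Hoxd12 and Hoxc12 depend on the prior count and are no bounds.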

How the data were processed

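RNA-seq of poly(A)-selected RNA from 6 embryos at E9.5 and 6 at E8.5 was used. The deposited tables hold, per the file headers, a read count and an RPKM for each of 29082 RefSeq transcripts. The authors' RPKM values served only to derive relative transcript lengths. The submitters' processing notes name bcl2fastq, Bowtie2, STAR, SICER 1.1 and the mm9 build without saying what each was used for, and the counting tool and its use of strand are not given in the sources used here. Accessions were matched to symbols in RefSeq (28436 matched, 646 not, the latter 1.41 to 1.48% of the reads of an E9.5 library and left out), and for each of 23109 genes the transcript with most reads over all libraries was kept.

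Counts were tested with edgeR 4.0.16 in R 4.3.3 (genes filtered with filterByExpr at a minimum of 10 reads, TMM scaling, robust quasi-likelihood fit of 12 libraries in 4 groups, Benjamini-Hochberg adjustment over 15436 genes per comparison). Standard errors were derived from each log2 fold change and its F statistic. The script was tested on simulated counts. Replicates were numbered in accession order. The labels do not say what the title numbers mean. Deviations from the group means of KI and control embryos with the same number correlated at 0.220, 0.261 and 0.103 at E8.5, over 0.1 in all 3 pairs, so the numbers were taken to pair the E8.5 embryos. At E9.5, with 2 numbers, they correlated at -0.02 to 0.12 and were not taken to pair them. KI and control embryos with different numbers correlated at -0.125 to -0.009 there. Replicate 3 of both groups reached 0.117, above the lowest E8.5 pair, so pairing at E9.5 cannot be decided from these values. Counts with the title number as a block are therefore given as an alternative. Alternatives were DESeq2 1.42.0, other scalings, filters and transcript sums, a title number block, a length trend, fewer libraries, and sex as a term, the last added after seeing the data.

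The embryos and all gene lists were chosen with earlier results of these data known. Genes named were the 8 highest and 8 lowest log2 fold changes among called genes with groups that did not overlap and at least 5 CPM in the higher group, the 4 called members of each list with the smallest p, its most abundant member and up to 2 called members of the opposite direction, and the 4 largest stage differences each way. Other list members were named after their values were seen. Some genes were taken out of the lists and are not reported here. Kmt2a, Setd1b, Ahsp, Cd68 and Apoc2 were not analysed here.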

Additional observations from a re-analysis of the deposited data

Results flagged for a closer look

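For the following genes the KI effect at E9.5 differed from that at E8.5 by the test of the difference itself (edgeR, adjusted p under 0.05 over 15436 genes). Values are log2 differences, E9.5 effect minus E8.5 effect, and no explanation was tested.

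Among genes of low oxygen and glycolysis the differences were 3.30 for Ppp1r3c, 3.18 for Bhlhe41, 3.12 for Ndufa4l2, 2.99 for Adm, 1.12 for Slc2a1, 1.12 for Kdm3a, 1.09 for Pgk1, 1.01 for Vegfa and 0.44 for Pkm. In the amino acid response they were 3.30 for Chac1, 2.27 for Slc7a3, 1.74 for Sesn2, 1.02 for Pck2 and 0.61 for Psat1. In heart, mesothelium and kidney precursors they were 1.45 for Nkx2-5, 1.35 for Ryr2, 1.10 for Gata6, 0.51 for Gata5, 0.95 for Tcf21, 0.89 for Krt19, 1.28 for Osr1, 1.17 for Pax8 and 0.93 for Ret. In the cardiac transcription factor list, 2 members not named here were called with the lower effect at E9.5. Other genes with the higher effect at E9.5 were H1f3 (3.06), H1f5 (2.27), En2 (2.33), Eda2r (2.01), Cdx4 (1.46), Grem1 (1.15), Alx1 (1.10), Hoxd1 (0.81), Tfap2a (0.52) and Msx2 (0.46).

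With the lower effect at E9.5, the posterior Hox genes had -9.93 for Hoxd12 (a fitted value with no KI read at E9.5, and no bound), -4.04 for Hoxd11 and -3.29 for Hoxd13. In muscle they were -4.24 for Myh3, -3.27 for Myf5 and -2.37 for Cdh15. In neurons and the neural tube they were -3.52 for Scrt2, -2.62 for Cntn2, -2.59 for Tubb3, -2.59 for Elavl3, -2.12 for Nefm, -1.58 for Olig2, -1.28 for Ngfr, -0.87 for Lhx2, -0.86 for Nes and -0.56 for Pax6. In the Notch pathway they were -1.95 for Dll3, -1.37 for Nrarp, -0.77 for Lfng, -0.71 for Notch1 and -0.65 for Dll1. In the cell cycle they were -0.95 for Ccne1, -0.46 for Rrm2 and -0.33 for Pcna.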

How the results depend on the processing

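The count of 4560 genes called at E9.5 became 920 with a minimum of 2-fold, and lay between 3281 and 4690 without 1 replicate. Other alternatives, apart from the replicate block, gave 3358 (replicates 1 and 2 alone at E9.5) to 4929 (DESeq2). Stage differences (1024) became 319 with a minimum of 2-fold and 607 to 1175 without 1 replicate (654 without the E8.5 control replicate 3). The E8.5 calls (843) became 214 and 363 to 980, with 546, 488 and 377 without the E8.5 KI replicate 1, control replicate 1 and KI replicate 3. With the title number as a replicate block, 5284 genes were called at E9.5, 1304 at E8.5 and 1547 for the difference, and 19 of 19 erythroid genes at E9.5. Of 127 called genes the text may name, 108 kept their call and direction in all 23 alternatives. Over these and 12 uncalled genes, 94 of 3196 values lost a call, 15 gained one and none turned its direction with a call on either side. In 8 values an uncalled gene changed sign without a call (Bax, Kmt2b and Hoxb9). The part of red cell content in differences among other genes was not tested. Depth limits the differences of Myf6, Hoxd12 and Hoxc12, which had no KI read, to lower bounds from 3 reads (0.108 to 0.132 CPM).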
